A study of Homo sapiens with 6 samples.

Results

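The cytosolic ribosomal proteins are the protein components of the ribosomes that translate nuclear mRNAs, and their transcripts were followed here as one group. Members were chosen by name alone, without measured values: symbols of RPL or RPS with a number and an optional A, X or L, the stalk proteins RPLP0, RPLP1 and RPLP2, and RPSA. This gave 81 genes among 58735 rows of the count table, 49 of the large and 32 of the small subunit. Of these, 80 passed the filter on low counts and were tested among 14046 genes. The remaining member, RPL10L, a retrogene copy of RPL10 known for its expression in testis, had no count in any library, which allows a level of up to 0.168 to 0.189 CPM (counts scaled to a common library total) depending on the library.

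All libraries were made from PANC-1, a wild-type human cell line of pancreatic ductal adenocarcinoma (PDAC), after exposure to conditioned medium (CM). CM-MLKL was taken from macrophages in direct co-culture with PANC-1 cells that overexpressed MLKL, the effector protein that ruptures the plasma membrane in necroptosis. CM-Vector was taken from the same kind of co-culture with empty-vector PANC-1 cells. Both groups are the same wild-type cells and differ only in the medium, with 3 libraries each and a stated time of 72 h, which the methods give for the co-culture. The macrophages were derived from the monocytic line THP-1 and were not themselves sequenced here, so all values describe a single tumour cell line and the overexpressed gene lies in the donor cells of the medium.

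A ribosome holds about equal numbers of nearly all of its proteins, and cells make their transcripts at high and closely matched levels. Most of these mRNAs begin with a 5′ terminal oligopyrimidine (TOP) tract, a C followed by an unbroken run of C and T, through which mTOR complex 1 and the LARP proteins set their translation and stability. Growing tumour cells spend much of their transcription on ribosome production, and unassembled RPL5 and RPL11 bind MDM2, which links ribosome assembly to p53.

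Total counts ranged from 15838403 to 17809132 in CM-MLKL libraries and from 17083975 to 17885429 in CM-Vector libraries. One library, CM-Vector 1, stood apart: its log2 CPM correlated with those of the other 5 libraries at r = 0.919 to 0.946, whereas all other pairs lay between 0.961 and 0.988. It also had the highest scaling factor by trimmed mean of M values (TMM), 1.16 against 0.926 to 1.03 elsewhere. Its MLKL level in the recipient cells was the highest as well, 14.6 CPM against 2.58 to 6.23 CPM, on raw library totals. Results are therefore given with and without it. Of the 6 epithelial markers of the list, 5 passed the filter, and CDH1 (E-cadherin) was at 0 to 0.172 CPM in CM-MLKL and 0.196 to 1.09 CPM in CM-Vector libraries. The list had a summed level, on raw library totals, of 2925 to 3698 CPM in CM-MLKL and 4473 to 5881 CPM in CM-Vector libraries. Of 11 macrophage markers, 8 were at or under 1 CPM in every library and PTPRC (CD45) was at 0. Their summed level, also on raw totals, was 20.3 to 22.4 CPM in CM-MLKL and 12.1 to 21.5 CPM in CM-Vector libraries. LAPTM5 was the most abundant of them. The 21.5 CPM was that of CM-Vector 1, whose values TMM scaling lowers, so the overlap of these raw sums depends on the scaling. In a bulk library, a lower share of a transcript in some cells and a lower level in all cells cannot be told apart.

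To determine how much of the transcriptome the ribosomal proteins occupied, their counts were summed in every library. The 81 members held 12.98%, 12.98% and 12.4% of all counts in CM-MLKL 1, 2 and 3, and 12.5%, 17.5% and 16.6% in CM-Vector 1, 2 and 3. The 3 CM-MLKL libraries were close to each other, CM-Vector 2 and CM-Vector 3 lay well above them, and CM-Vector 1 lay just inside the CM-MLKL range, so the groups overlapped. The mean share was 12.8% ± 0.311 in CM-MLKL and 15.5% ± 2.70 in CM-Vector cells (SD, n = 3 each), a difference of −2.73 percentage points that is about as large as the SD of the CM-Vector group. Without CM-Vector 1 the difference was −4.26 percentage points, with a mean of 17.1% in the remaining CM-Vector libraries. A sum over chosen genes is given here as a description, and 3 against 3 libraries could not reach an exact p below 0.10.

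The same arrangement of libraries held when the sum or its denominator was changed. After removal of mitochondrially encoded genes, the share was 13.5%, 13.3% and 13.1% in CM-MLKL and 13.0%, 18.2% and 17.2% in CM-Vector libraries. With pseudogenes and the ribosomal proteins outside the name rule added, it was 13.7%, 13.8% and 13.1% in CM-MLKL and 13.1%, 18.5% and 17.5% in CM-Vector libraries. Mitochondrially encoded genes themselves took 3.56%, 2.29% and 5.11% of counts in CM-MLKL and 3.85%, 3.85% and 3.36% in CM-Vector libraries, a spread that did not follow the share of the ribosomal proteins.

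**Figure D1:**
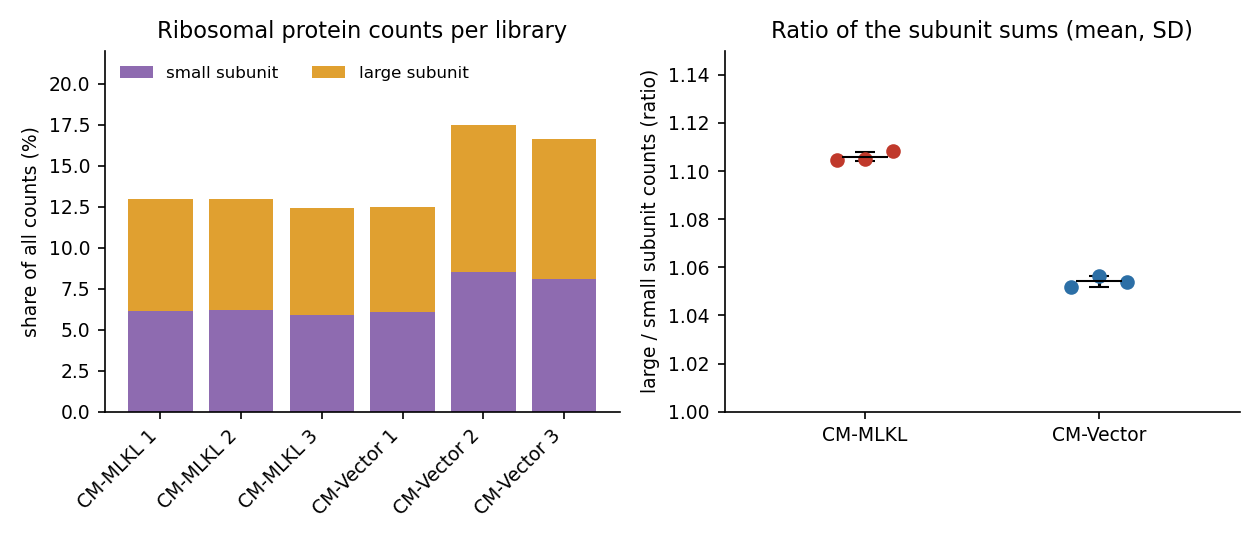
Left, percentage of all counts held by small-subunit (purple) and large-subunit (orange) ribosomal protein genes in each library; right, ratio of large- to small-subunit counts per library, with the group mean and SD (n = 3), on an axis that does not start at 0. The share in CM-Vector 1 (12.5%) sits with the CM-MLKL libraries, whereas the ratio separates all CM-MLKL (1.105 to 1.108) from all CM-Vector libraries (1.052 to 1.056).

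Next, the subunits were compared within each library, where sequencing depth and scaling cancel. Large-subunit members took 6.81%, 6.82% and 6.54% of all counts in CM-MLKL and 6.39%, 8.99% and 8.53% in CM-Vector libraries. Small-subunit members took 6.17%, 6.17% and 5.90% in CM-MLKL and 6.07%, 8.51% and 8.09% in CM-Vector libraries. The ratio of large- to small-subunit counts was 1.105, 1.105 and 1.108 in CM-MLKL, against 1.052, 1.056 and 1.054 in CM-Vector libraries. The groups did not overlap, CM-Vector 1 lay with the other CM-Vector libraries, and the ratio was 4.92% higher in CM-MLKL cells. Because 1 gene, RPS16, held so many counts, the ratio was also computed without it, a choice made after seeing the data. It was then 1.44, 1.42 and 1.46 in CM-MLKL and 1.36, 1.37 and 1.38 in CM-Vector libraries. Geometric means over the 72 members above 10000 counts in total, which give every gene the same weight, were also not planned beforehand. With them it was 0.867, 0.861 and 0.891 in CM-MLKL and 0.819, 0.833 and 0.839 in CM-Vector libraries. All 3 versions were free of overlap, but they weight the same counts differently and do not support each other independently. The size of the difference was small beside the library-to-library change in the share itself. The ratio is a description and was not tested.

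To assess the members singly, CM-MLKL was compared with CM-Vector by the edgeR quasi-likelihood test over all 14046 genes. The test called 57 genes higher and 15 lower at an adjusted p below 0.05, which is 0.513% of genes tested. None of the 80 members was called, and none had an unadjusted p below 0.05, beside 874 of all genes tested. DESeq2 also called no member, out of 207 genes called, and had no member with an unadjusted p below 0.05, beside 903 of all genes tested. The fold changes nevertheless pointed mostly one way: 74 of 80 members had a log2 fold change below 0, beside 55.5% of all genes tested, and their median was −0.27 beside −0.04 for all genes. Between −0.5 and −0.1 lay 72 of the 80 members. The median was −0.24 over 48 large-subunit members, 44 of them below 0, and −0.29 over 32 small-subunit members, 30 of them below 0.

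These values depended strongly on CM-Vector 1. Without it, the median of the members was −0.44 beside 0.05 for all genes, and 77 of 80 were below 0, beside 45.1% of all genes. An unadjusted p below 0.05 was found for 37 members, beside 2148 of all 14303 genes tested (edgeR). No member passed the adjusted threshold in this fit either, whereas 108 of 14303 genes were called lower (0.755%). The smallest adjusted p of a member was then 0.111 in the edgeR test, for RPL13A (log2 fold change −0.63). Without CM-Vector 2, by contrast, the median was −0.09, beside −0.04 for all genes, and 63 members were below 0, beside 53.9% of all genes.

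**Figure D2:**
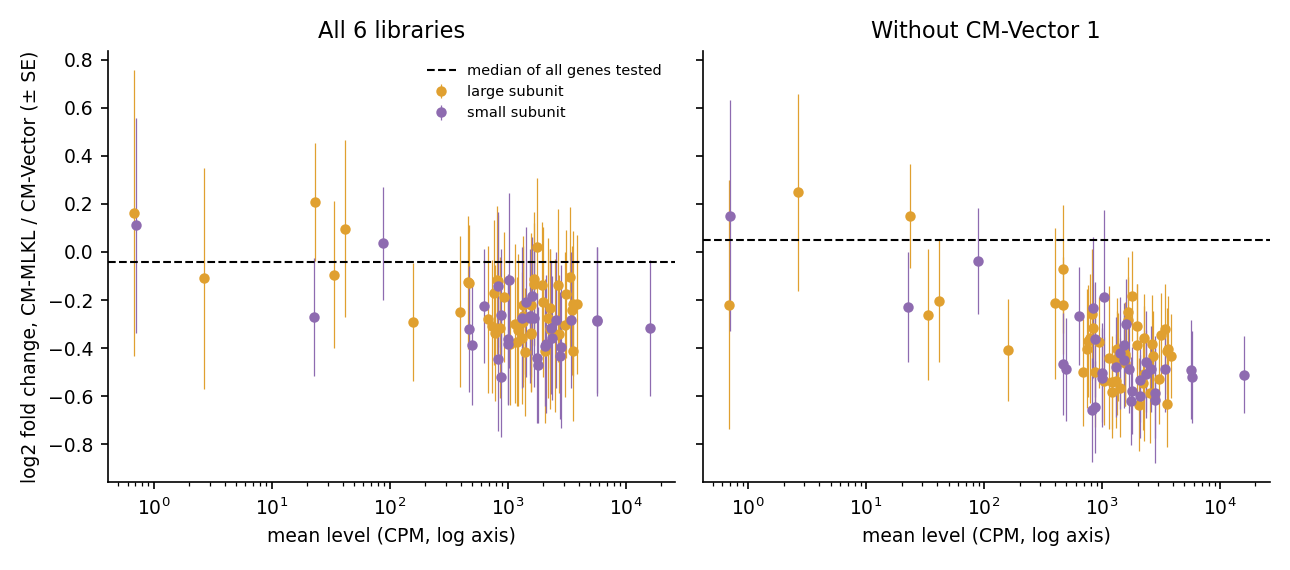
Log2 fold change (CM-MLKL over CM-Vector, ± SE from edgeR) of the 80 members tested against their mean level in CPM on a log axis, from all 6 libraries (left) and without CM-Vector 1 (right). Dashed lines mark the median of all genes tested (−0.04 and 0.05); most members lie below the line in both panels, with shorter error bars on the right.

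The members also varied together from library to library. Among the 72 members above 10000 counts, the median correlation of log2 CPM between pairs over the 6 libraries was 0.823, and 93.9% of pairs correlated positively, a description over libraries that share depth and scaling. Relative to its own mean over the 6 libraries, the median member deviated by −0.14, −0.03 and −0.22 (log2) in CM-MLKL 1, 2 and 3 and by −0.36, 0.41 and 0.31 in CM-Vector 1, 2 and 3. CM-Vector 2 was the highest library for 55 members and CM-Vector 3 for 12. Both of them exceeded every CM-MLKL library for 59 of the 72 members. These correlations and counts were computed over the members alone, so they do not set the members apart from other genes. CM-Vector 1 was the lowest of all libraries for 39 members, lay within the CM-MLKL range for 30 and above it for 3. In that library the deviation of a member from the median member correlated with the GC content of its transcripts (Pearson r = −0.47, Spearman rho = −0.52 over 72 members, which share the library and are not independent). The part of GC content in the low levels of CM-Vector 1 was not tested.

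CM-MLKL 2 and CM-MLKL 3 departed from the median member in opposite directions: over the 72 members, their deviations correlated at a Pearson r of −0.88, a description over genes that share these libraries. Each gene was centred on its own mean over the same 6 libraries, so a low value in 1 library raises its values in the others. The 9 genes that lay furthest below the median member in CM-MLKL 2, picked after their values were seen, were RPS4X, RPL11, RPL23A, RPS6, RPL10A, RPL5, RPL14, RPL6 and RPS13. RPS4X, an X-linked small-subunit protein, had 1067, 471 and 1438 CPM in CM-MLKL 1, 2 and 3, and 934, 1269 and 1028 CPM in CM-Vector libraries. RPL11, a partner of the 5S ribosomal RNA, had 1112, 599 and 1384 CPM in CM-MLKL and 957, 1553 and 1295 CPM in CM-Vector libraries. All 9 lay above the median member in CM-MLKL 3, where RPS4X was highest, 0.78 (log2) above it, against 1.03 below it in CM-MLKL 2. Genes picked as low in CM-MLKL 2 are pushed upward elsewhere by the centring. In CM-Vector 1 they also lay above the median member, by 0.05 (RPL14) to 0.55 (RPL23A), so this was not particular to CM-MLKL 3. At the other end, again picked after seeing values, RPL35 had 1764, 2908 and 1398 CPM in CM-MLKL and 1707, 3060 and 2815 CPM in CM-Vector libraries. RPS9 had 2033, 3423 and 1834 CPM in CM-MLKL and 1977, 3790 and 3812 CPM in CM-Vector libraries, and RPL28 was likewise higher in CM-MLKL 2 (2490 CPM) than in CM-MLKL 3 (1355 CPM). The SD over members was accordingly 0.314 in CM-MLKL 2 and 0.249 in CM-MLKL 3, against 0.106 to 0.188 in the 3 CM-Vector libraries and 0.121 in CM-MLKL 1. The 9 genes had a median transcript length of 879 bases, beside 680 bases for the other 63. Over all 72 members, the deviation in CM-MLKL 2 correlated only weakly with transcript length (Spearman rho = −0.19) and GC content (rho = 0.21). EEF1A1, the elongation factor that brings aminoacyl-tRNA to the ribosome and another TOP mRNA, was likewise low in that library, with 13669, 4169 and 16536 CPM in CM-MLKL and 13313, 16843 and 11945 CPM in CM-Vector libraries.

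Levels per transcript length, in CPM per kilobase (kb) of the median coding transcript, allow members to be set beside each other. RPS16 stood far above all others at 30527 CPM per kb, 3.76 times the next member. It held 246394, 219232 and 252294 counts in CM-MLKL and 241706, 351927 and 327529 counts in CM-Vector libraries, or 1.44%, 1.38% and 1.42% against 1.37%, 1.97% and 1.92% of all counts. RPS16, a small-subunit protein of the head near the decoding site, thus ranked 2 among all genes by level, and it followed the pattern of the whole group (−0.32 ± 0.28 log2, adjusted p = 0.999, edgeR). RPS16 took 11.1%, 10.7% and 11.4% of the members' counts in CM-MLKL and 11.0%, 11.2% and 11.5% in CM-Vector libraries, so its part of the pool barely moved. The next members were RPLP1 with 8114, RPS2 with 6954, RPS3 with 6358 and RPS18 with 5730 CPM per kb. The 70 members that are neither paralogs nor share much coding sequence with another gene ranged between 354 and 30527 CPM per kb, with a median of 2482.

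The low end held paralogs and members that share coding bases with another gene. In GENCODE 29, the coding bases of 7 members lie by more than 30% inside another protein-coding gene on the same strand, mostly a read-through transcript that joins neighbours. Among these are RPS10 (56.9% of its coding bases), RPL36A (67.3%), RPL17 (98.2%), RPL26 (60.7%), RPL22 (59.4%) and RPS15A (36.9%). RPS10 had only 1.07 CPM per kb, RPL36A 3.84, RPL17 33.1 and RPL26 59.9. RPL22 had 229 and RPS15A 902 CPM per kb, so RPS15A lay above RPS28 (354), which is not among these 7 members. The part of discarded shared reads in these levels was not tested, and the counts of the read-through genes were themselves no more than 12 over all libraries. Pseudogene copies held counts as well: 17 pseudogenes named after RPL9 held 99557 counts, more than the 69709 of RPL9 itself, and 20 named after RPS2 held 155667, beside 581927 of RPS2. Whether these reads came from the members was not tested. For RPS10, 11 pseudogenes held 1668 counts against 73 of the gene. Pseudogenes of all members together took 0.474%, 0.519% and 0.415% of counts in CM-MLKL and 0.431%, 0.659% and 0.627% in CM-Vector libraries. Levels of these genes are therefore uncertain.

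**Figure D3:**
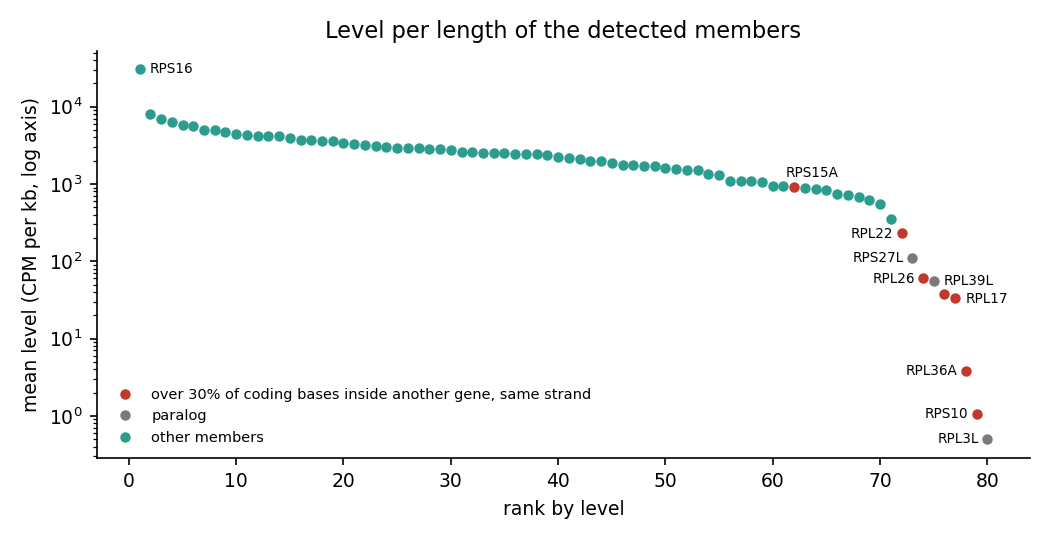
Mean level over the 6 libraries in CPM per kb of coding transcript (log axis) of the 80 detected members in order of level. RPS16 lies alone at the top (30527), and the low tail is made of paralogs (grey) and members that share over 30% of their coding bases with another gene on the same strand (red), down to RPS10 at 1.07 and RPL3L below it.

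The members with the smallest p-values were mostly of the small subunit. RPS21, known in yeast for its part in maturation of the 18S ribosomal RNA, had 754, 734 and 667 CPM in CM-MLKL and 802, 1243 and 1048 CPM in CM-Vector libraries. All CM-MLKL libraries lay below all CM-Vector libraries, by a small gap to CM-Vector 1 (log2 fold change −0.52 ± 0.25 SE, adjusted p = 0.842, edgeR). RPS27, a zinc-finger protein of the small subunit, had 1528, 1599 and 1394 CPM in CM-MLKL and 1668, 2394 and 2197 CPM in CM-Vector libraries. The groups again did not overlap (−0.47 ± 0.24, adjusted p = 0.911, edgeR). RPS3A had 1548, 1599 and 1366 CPM in CM-MLKL and 1400, 2489 and 2235 CPM in CM-Vector libraries, where CM-Vector 1 lay inside the CM-MLKL range. Others among the 12 members with the lowest p were RPS12, RPS15A, RPS23, RPS29, RPL7, RPL13A, RPL24 and RPL37, whose log2 fold changes lay between −0.44 and −0.34, all with an adjusted p of 0.999.

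Across members, groups without overlap were no more frequent than elsewhere. On TMM CPM, 5 of 80 members had all CM-MLKL libraries on one side of all CM-Vector libraries, beside 11.9% of genes tested. RPS27, RPL37 and RPS21 were among those on the lower side and RPL17 was on the higher. RPL37 had 1327, 1405 and 1441 CPM in CM-MLKL and 1442, 1844 and 2002 CPM in CM-Vector libraries, so that its gap was within 1 CPM. RPL17 belongs to the low-level genes above, with 24.3, 25.1 and 25.6 CPM in CM-MLKL against 19.0, 23.5 and 22.5 CPM in CM-Vector libraries.

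To separate the make-up of the pool from its size, each gene was also expressed as a percentage of the members' summed counts. In this measure 10 of 80 members did not overlap between groups, beside 15.2% of genes tested. Those lower in CM-MLKL were RPS21, RPS27, RPS3A, RPS12 and RPL24, and those higher were RPL3, RPL10, RPL17, RPL35A and RPLP2. RPS21 took 0.591%, 0.530% and 0.550% of the pool in CM-MLKL and 0.744%, 0.658% and 0.601% in CM-Vector libraries. RPS3A took 1.21%, 1.16% and 1.13% in CM-MLKL and 1.3%, 1.32% and 1.28% in CM-Vector libraries. Of the genes on the lower side, 4 of 5 belonged to the small subunit. The share of members without overlap was no higher than that of all genes, and the split between subunits was not tested.

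The 5 genes on the higher side are large-subunit members. RPLP2, which forms the stalk with RPLP0 and RPLP1 that recruits translation GTPases, took 1.3%, 1.47% and 1.41% in CM-MLKL and 1.06%, 1.06% and 1.24% in CM-Vector libraries. RPL10, which joins last and makes the large subunit competent for translation, took 2.41%, 2.20% and 2.30% in CM-MLKL and 2.18%, 2.16% and 2.07% in CM-Vector libraries. RPL3, a protein near the peptidyl transferase centre, took 1.52%, 1.36% and 1.48% in CM-MLKL and 1.34%, 1.28% and 1.33% in CM-Vector libraries. RPL35A, another gene of Diamond-Blackfan anaemia, took 0.670%, 0.688% and 0.682% in CM-MLKL and 0.626%, 0.654% and 0.625% in CM-Vector libraries. When libraries were scaled to the members' total, a setting added after seeing the data, no member was called and the smallest adjusted p was 0.767 (edgeR), for RPLP2 at a log2 fold change of 0.31.

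**Figure D4:**
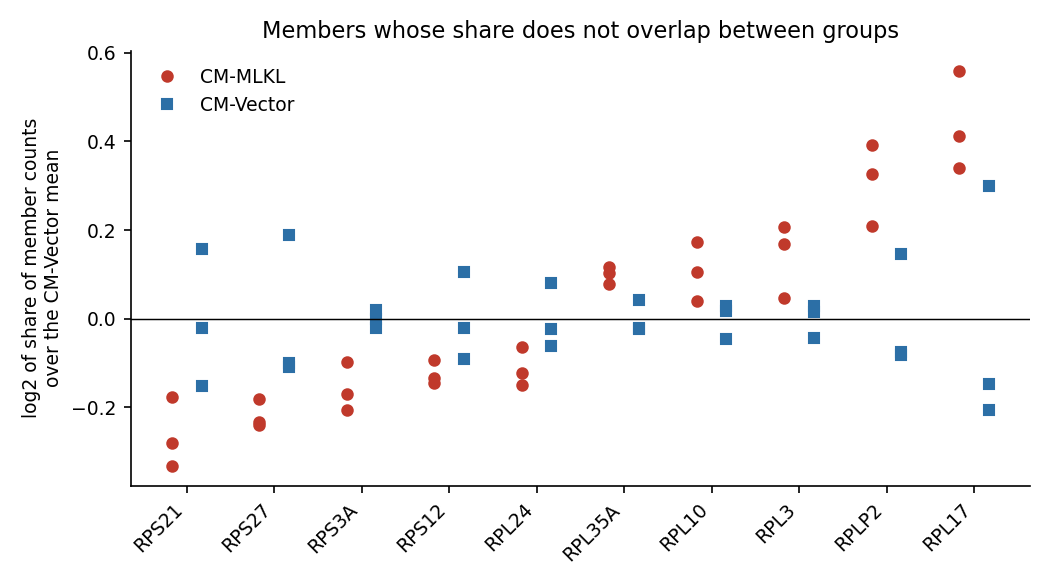
Share of the members' counts held by the 10 genes without overlap between groups, as log2 of the ratio to the CM-Vector mean, with 1 point per library (CM-MLKL, red circles; CM-Vector, blue squares). RPS21 lies furthest below the CM-Vector mean and RPL17 and RPLP2 furthest above it, and most other gaps between groups are narrow.

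The stalk proteins varied among libraries much as the other members did. RPLP0, the base of the stalk, had 3544, 2988 and 3209 CPM in CM-MLKL and 2711, 4680 and 4132 CPM in CM-Vector libraries (log2 fold change −0.24). RPLP1 had 2994, 4301 and 2731 CPM in CM-MLKL and 2602, 4503 and 4535 CPM in CM-Vector libraries (−0.22). RPLP2 had 1654, 2036 and 1705 CPM in CM-MLKL and 1146, 2003 and 2164 CPM in CM-Vector libraries (0.02), with a value below 0 once CM-Vector 1 or CM-MLKL 2 was left out. Per 100 counts of RPLP1, RPLP2 had 55.2, 47.3 and 62.4 counts in CM-MLKL and 44.1, 44.5 and 47.7 in CM-Vector libraries, which overlapped only through CM-MLKL 2.

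Members known for roles beyond the ribosome gave no called change. RPL5 and RPL11, which hold MDM2 when ribosome assembly stalls, had log2 fold changes of −0.31 and −0.30. RPS6, the classical substrate of S6 kinase, had 876, 475 and 1037 CPM in CM-MLKL and 734, 1052 and 851 CPM in CM-Vector libraries (−0.14), and its value changed sign without CM-MLKL 2. RPS27A, which is made as a fusion with ubiquitin, was at −0.36, and RPSA, also known as a laminin receptor, at −0.32. RPS3, which has an endonuclease activity on damaged DNA, was at −0.29. RPL13A, a subunit of the complex that silences inflammatory mRNAs after interferon-gamma, had 2970, 3359 and 2823 CPM in CM-MLKL and 2506, 4917 and 4741 CPM in CM-Vector libraries (−0.41). RPS19, the gene most often mutated in that anaemia, was at −0.27, and RPL22, a tumour suppressor in T cell leukaemia, at −0.29. All of these had an adjusted p of 0.999 (edgeR).

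The paralogs were expressed at a small fraction of their partners. RPS27L, a p53-induced copy of RPS27, had 81.4, 105 and 81.1 CPM in CM-MLKL and 74.1, 96.6 and 90.5 CPM in CM-Vector libraries (log2 fold change 0.04). Per 100 counts of RPS27 this was 5.33, 6.58 and 5.82 in CM-MLKL and 4.44, 4.04 and 4.12 in CM-Vector libraries, without overlap between groups. RPL39L had 2.90, 2.62 and 2.60 counts per 100 of RPL39 in CM-MLKL and 1.5, 2.52 and 2.68 in CM-Vector libraries, where only CM-Vector 1 was apart. RPL3L, a copy of RPL3 known from striated muscle, had at most 0.976 CPM in any library. RPL39L and RPL3L had log2 fold changes of 0.10 and 0.16, and RPS27L, RPL39L and RPL3L all lay on the other side of 0 without CM-Vector 1.

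The start sites of the members were then read for the TOP tract, since TOP mRNAs are known to be controlled as one class. RefSeq starts on GRCh38.p14 were matched for 64 of the 81 members. A tract was defined as an unbroken run of at least 5 C or T, on the coding strand, that begins with C and whose first base lies within 5 bases of the annotated start. Such a run was found at 50 of 64 members (78.1%), beside 21.1% of all 27305 promoters and 22.7% of the genes tested here that had a promoter. The annotated first base was C in 46 of 64 members (71.9%), beside 15% of all promoters. Tracts ran over 5 to 22 bases, with a median of 11. Windows of 30 bases around the start are shown 5′ to 3′ for members named above, with the tract in capitals; the start is base 16 of each window. The first set holds RPS16, the most abundant member, RPS21 and RPS27, whose groups did not overlap, and RPLP2, RPLP1 and RPS6.
RPS16: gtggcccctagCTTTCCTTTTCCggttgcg
RPS21: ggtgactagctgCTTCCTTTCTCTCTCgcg
RPS27: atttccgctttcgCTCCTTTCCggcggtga
RPLP2: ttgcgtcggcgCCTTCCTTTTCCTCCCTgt
RPLP1: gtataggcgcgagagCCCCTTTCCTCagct
RPS6: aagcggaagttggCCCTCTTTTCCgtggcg

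These windows lie at chr19:39435935-39435964 (minus strand) for RPS16, chr20:62387088-62387117 (plus) for RPS21, chr1:153990747-153990776 (plus) for RPS27, chr11:809952-809981 (plus) for RPLP2, chr15:69452803-69452832 (plus) for RPLP1 and chr9:19380222-19380251 (minus) for RPS6. A second set of 3 had no run that met the rule, namely RPS27L, beside its partner RPS27, RPS4X, which was lowest in CM-MLKL 2, and RPL10. Shorter or more distant runs are present in these windows, and RPS4X has a run of 4 bases that begins within the set distance.
RPS27L: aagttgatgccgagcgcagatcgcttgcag
RPS4X: gcagtctccagccccaatttctacgcgcac
RPL10: tttttccactctcagaaatatacgtctgtc

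They lie at chr15:63157463-63157492 (minus) for RPS27L, chrX:72277234-72277263 (minus) for RPS4X and chrX:154398050-154398079 (plus) for RPL10. In these windows no run of the set length began within the set distance of the annotated start, which draws nothing about the start used in these cells. The median log2 fold change was −0.28 over the 50 members with a tract, 48 of them below 0, and −0.23 over the 13 tested members without one, 11 of them below 0. Without CM-Vector 1 these medians were −0.43 and −0.42, so the members with and without an annotated tract lay close together. In the 300 bases around the start, the ETS core CCGGAA was present on either strand in 54.7% of members. All promoters had it in 17.6% and those of genes tested in 30.1%. The core was also present in 55.9% of 68 mitochondrial ribosomal proteins and 64.3% of 14 other translation genes with known TOP mRNAs. Initiation factors had it in 28.0%, and ribosome biogenesis factors lay between these and the members. The ETS core was thus not particular to the members. TATAAA was present in 9.4% of members, beside 12% of all promoters and 5.1% of those of genes tested.

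Genes around the ribosome were taken from lists of known factors. With all 6 libraries, the edgeR test above, without GC and length offsets, called none of them in either direction. The 6 ribosomal proteins and paralogs outside the name rule, among them FAU, a fusion of a ubiquitin-like protein with a small-subunit protein, were all below 0, with a median log2 fold change of −0.26. FAU had 931, 1503 and 936 CPM in CM-MLKL and 892, 1483 and 1471 CPM in CM-Vector libraries, which overlapped. Of 20 other translation genes with known TOP mRNAs, 14 were below 0 with a median of −0.04, the same as that of all genes tested. Without CM-Vector 1 their median was −0.19, beside 0.05 for all genes. EEF1A1 was at −0.29 and EEF1B2, its exchange factor, at −0.37, whereas RACK1, a scaffold on the small subunit, was at 0.14. A TOP tract was found at 12 of 14 of these genes with a promoter (85.7%), against 28.0% of initiation factors and 25.0% of ribosome biogenesis factors.

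Genes that build or supply the ribosome stood nearer to 0 than its proteins. The 28 initiation factors had a median of 0.01, with 13 below 0. The 51 biogenesis factors tested had a median of −0.09, with 38 below 0, and a median of 0.16 without CM-Vector 1. Among them FBL, the methyltransferase of the box C/D particles, was the most abundant, with 3130, 3903 and 2781 CPM in CM-MLKL and 1953, 4163 and 4495 CPM in CM-Vector libraries. The 26 subunits and factors of RNA polymerases I and III had a median of −0.17, and 0.12 without CM-Vector 1, and the 8 dedicated chaperones of ribosomal proteins had a median of −0.10.

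Of 19 tested genes of mTOR signalling and TOP control, edgeR without GC and length offsets called none with all libraries, and the median was −0.09. EIF4EBP1, the translational repressor that mTOR complex 1 inactivates, had 185, 269 and 189 CPM in CM-MLKL and 69.0, 136 and 117 CPM in CM-Vector libraries. The groups did not overlap, and the change of 1.0 ± 0.30 (log2, SE) missed the threshold with an adjusted p of 0.343 by edgeR. With GC and length offsets it was called (log2 fold change 1.09, adjusted p = 0.0190, edgeR). It was not called without CM-Vector 1 (0.79, adjusted p = 0.148, edgeR) or by DESeq2 with all libraries (adjusted p = 0.134). DEPTOR, an inhibitory subunit of the mTOR complexes, had 2.41, 1.55 and 1.70 CPM in CM-MLKL and 3.52, 6.46 and 7.06 CPM in CM-Vector libraries. It did not overlap either and missed the threshold with all libraries (−1.58, adjusted p = 0.212, edgeR), but was called without CM-Vector 1 (−1.81, adjusted p = 0.0139, edgeR) and by DESeq2 with all libraries.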

How the data were processed

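Polyadenylated RNA of PANC-1 cells was sequenced, with 3 libraries of CM-MLKL-treated and 3 of CM-Vector-treated cells, described in the methods as independent experiments. The authors deposited 1 table of whole-number read counts for each gene, without normalisation. Per the methods, mRNA was enriched on oligo(dT) beads, libraries were made with a NEBNext Ultra kit, reads were trimmed with fastp, and StringTie was used. For the aligner, genome build and counting tool, no name is given in the sources used here. Whether strand was used in counting is not stated, so that reads of overlapping genes on opposite strands may not have been told apart.

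All 81 members matched GENCODE 29 by name, which gave lengths, GC content and overlaps. Start windows and promoters came from RefSeq tables on GRCh38.p14. Counts were analysed in R 4.3.3 with edgeR 4.0.16: filterByExpr (minimum count 10, minimum total 15), TMM scaling, and the two-sided quasi-likelihood test with the medium as its single factor, adjusted by the Benjamini-Hochberg method over all genes tested at 0.05. DESeq2 1.42.0, limma-voom (limma 3.58.1), other scalings and filters, GC and length offsets, a replicate block and leaving out each library were alternatives. The test scripts were tested on simulated data. Levels are TMM CPM, and shares use raw totals. Raw totals were also used for the MLKL level, the summed levels of lists, the cut of 1 CPM for markers and the level allowed by a count of 0. A count of 0 allows up to 3 counts, for counting error only.

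Named members were the 12 with the smallest p, the 5 highest per length, the 3 largest and 3 smallest fold changes, members with roles known beforehand, paralogs and members that failed the filter. From other lists, up to 3 genes with the smallest p and 2 with the highest level were taken. Genes named for non-overlapping groups, low levels, pseudogenes or their place in CM-MLKL 2 were chosen after seeing values. Members and lists were chosen with earlier results of these data known. Some members and genes of the lists are counted but not reported singly here.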

Additional observations from a re-analysis of the deposited data

How the results depend on the processing

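No member was called in any of the 18 settings run, and the members' median stayed below 0 in all of them except after scaling to the members' own total (0.01). The leave-one-out range of the median was −0.44 to −0.09, that of the share difference −4.26 to −1.74 percentage points and that of the large-to-small ratio difference 0.0507 to 0.0530. The ratio difference was 0.0703 without RPS16 and 0.0425 on geometric means. The count of all genes called, 72 in the main test, was 207 with DESeq2, 249 with no filter on low counts, 142 with GC and length offsets, 127 with these offsets and the replicate block together, 30 after scaling to the members' total, and 18 to 314 when each library was left out in turn. The cause of these shifts was not tested. Same-numbered libraries deviated together with r of 0.171, 0.168 and −0.305, and other pairs across the groups with r of −0.31 to 0.357. Deviations from means of 3 libraries cannot settle whether the numbers pair the libraries. With the replicate block 155 genes and no member were called, at a member median of −0.24. Log2 fold changes changed sign when single libraries were left out for RPL3L (−0.22 to 0.58), RPLP2 (−0.18 to 0.19), RPS6 (−0.38 to 0.12), RPL10 (−0.35 to 0.0043), RPS4X (−0.48 to 0.22), RPS27L (−0.10 to 0.13), RPL39L (−0.20 to 0.39), RPL39 (−0.34 to 0.027), RPL35A (−0.38 to 0.0033), RPL26 (−0.26 to 0.13), RPL36A (−0.55 to 0.25), RPL23A (−0.62 to 0.011), RPL14 (−0.36 to 0.12), RPL6 (−0.31 to 0.10), EEF1A1 (−0.65 to 0.11), RACK1 (−0.030 to 0.28), FBL (−0.37 to 0.10), MT-CO3 (−0.26 to 1.13), MT-ND1 (−1.01 to 1.21) and MT-ND3 (−0.82 to 1.26). MT-CO3 was at −0.036 on library size only, MT-ND1 and MT-ND3 at 0.15 and 0.24 with limma-voom, at 0.19 and 0.27 with the replicate block and at 0.23 and 0.38 with this block and the offsets. With GC and length offsets, RPL39 was at 0.031 and RPL26 at 0.023. Scaling to the members' total, which sets the members' sum level by construction and moves the median of all genes to 0.15, put RPLP1 at 0.059, RPS2 at 0.0048, RPS3 at 0.013, RPS18 at 0.021, RPLP0 at 0.043, RPS6 at 0.13, RPL10 at 0.11, RPS19 at 0.018, RPS4X at 0.15, RPL39 at 0.14, RPL3 at 0.14, RPL35A at 0.099, RPL26 at 0.18, RPL36A at 0.012, RPL14 at 0.17, RPL6 at 0.085, RPS13 at 0.0066, RPL9 at 0.015, FAU at 0.075, RPL28 at 0.060 and FBL at 0.20. With 3 libraries a group, of which 1 stands apart, the SE of a typical member (RPS16, 0.28) was close to the size of its log2 fold change (−0.32).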

Other observations

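The ribosomal proteins of mitochondria, which are encoded in the nucleus and serve a separate ribosome, showed a smaller step between libraries than the cytosolic ones. They held 0.754%, 0.706% and 0.715% of all counts in CM-MLKL and 0.717%, 0.836% and 0.791% in CM-Vector libraries. Of 76 tested, 56 had a log2 fold change below 0, with a median of −0.12, and none was called. On raw library totals, the 13 mRNAs encoded by mitochondrial DNA summed to 12030, 7488 and 12990 CPM in CM-MLKL and 21260, 6873 and 6754 CPM in CM-Vector libraries. The library with the highest sum, CM-Vector 1, was thus the one whose cytosolic ribosomal proteins lay with the CM-MLKL group. The median log2 fold change of the mitochondrially encoded mRNAs was −0.03 with all libraries and 0.75 without CM-Vector 1. In that fit MT-CO3, MT-ND1 and MT-ND3 were called higher in CM-MLKL (1.13, 1.21 and 1.26, adjusted p = 0.0425, 0.0339 and 0.0390, edgeR), named after their values were seen.

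Of 13 tested p53 targets, 6 were below 0 and the median log2 fold change was 0.04, and 0.27 without CM-Vector 1. CDKN1A, the cell cycle inhibitor p21, had 1023, 1388 and 1018 CPM in CM-MLKL and 753, 479 and 482 CPM in CM-Vector libraries. The groups did not overlap (1.0 ± 0.27 SE, adjusted p = 0.252, edgeR), and the gene was called without CM-Vector 1 (1.28, adjusted p = 0.0159, edgeR). KRT8, an epithelial keratin, had 2055, 2384 and 1820 CPM in CM-MLKL and 3148, 3811 and 3190 CPM in CM-Vector libraries (adjusted p = 0.482, edgeR). LAPTM5, listed as a macrophage marker, had 16.0, 18.4 and 16.6 CPM in CM-MLKL and 9.98, 7.18 and 8.6 CPM in CM-Vector libraries. It was called without CM-Vector 1 (1.13, adjusted p = 0.0401, edgeR). Of the 3 macrophage markers tested, 2 went the other way with all libraries, neither of them called. CD14 was at −0.88 (adjusted p = 0.727, edgeR) and ITGAM at −1.38 (adjusted p = 0.704, edgeR).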
